A study of Drosophila melanogaster with 20 samples.

Results

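Among 15473 transcripts measured in fly heads, 49 were higher in Elav-ATMi flies than in Elav-GAL4 flies while differing little in the glial and the mutant comparison. They were chosen from differences of group mean log2 levels. The Elav-ATMi minus Elav-GAL4 difference had to be at least 0.6, all 4 Elav-ATMi arrays had to lie above all 4 Elav-GAL4 arrays, and the Repo-ATMi minus Repo-GAL4 and ATM8 homozygote minus heterozygote differences each had to lie between -0.5 and 0.5. The Elav, Repo and ATM8 values of the 49 are therefore descriptions of how they were picked. The choice did not use the ElavC155 pair of genotypes, so tests for the 49 are reported on that comparison. Its standard errors and p-values use 1 spread per transcript from all 20 arrays, Elav arrays included, unless another fit is named.

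The study lowered the function of ATM in Drosophila melanogaster and measured total RNA of heads on 1 single-colour array per sample. In Elav-ATMi flies (4 samples) an Elav-GAL4 driver on the second chromosome and a UAS-RNAiATM transgene were each present in 1 copy, and Elav-GAL4 flies (4 samples) carried the driver alone. ElavC155-ATMi and ElavC155-GAL4 flies (2 samples each) carried the X-linked ElavC155-GAL4 driver with and without that transgene, and Repo-ATMi and Repo-GAL4 flies (2 each) did so with the Repo-GAL4 driver. These 6 genotypes were in a w1118 background, were kept at 25°C and were labelled as 4 to 6 days old. ATM8 is a temperature-sensitive allele of the ATM gene. ATM8 homozygotes and ATM8/+ heterozygotes (2 samples each) were in a pp e1 background, were raised and kept at 18°C until collection. All flies were collected 0 to 3 days after eclosion and then spent 3 days at 25°C before RNA was taken. Control flies of the 3 driver pairs lacked the transgene altogether, so its presence and the RNA interference it causes cannot be told apart.

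ATM is a protein kinase that is activated at DNA double-strand breaks and phosphorylates checkpoint and repair proteins; tefu is its gene in the fly. GAL4 is a yeast transcription factor that switches on any gene placed behind its UAS target sequence, so that a driver line decides in which cells the RNA interference hairpin is made. Elav is an RNA-binding protein of neurons and Repo a homeodomain protein of glia, and drivers built on these genes are the usual tools for reaching either cell type in the fly brain. The comparisons address in which cell type lowered ATM function alters gene expression. Heads hold neurons, glia, fat body, muscle and other cells, and in such bulk RNA more cells of a type and more RNA per cell cannot be told apart.

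The rows of the table are FlyBase transcript identifiers. The RefSeq gene table for the Release 6 assembly held 44 of the 15473 identifiers, 17 of them under exactly 1 gene, but 0 of the 49 members were among them. The members are therefore given by identifier, without a gene name or a function. The 88 genes of 8 lists (neuronal, glial, photoreceptor, fat body and haemocyte markers, the ATM and DNA damage response, the cell cycle and antimicrobial peptides) had 0 matching rows, so neither the head tissue nor the knockdown of tefu was checked against its own transcripts. Values are RMA levels on a log2 scale. A difference of 1 is a doubling, and the table flags no transcript as undetected, so how far the dim ones stand above background is unknown.

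The members were mostly dim. Of the 49, 34 had a mean level over the 20 arrays within the dimmest 25% of the table, at or under 7.66 (called dim here), and the median member stood at the 19.3th percentile. Their median level in Elav-GAL4 heads was 6.20, with a range of 4.63 to 12.11, against a median of 10.89 over all transcripts. Such levels rank the signal of different probes and not amounts of RNA. The Elav-ATMi minus Elav-GAL4 differences ran from 0.61 to 2.11 with a median of 0.96, which is a 1.94-fold difference. With Repo the differences ran from -0.45 to 0.47 (median 0.14), and in ATM8 homozygotes from -0.39 to 0.42 (median 0.06), as the rule requires.

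The Elav criterion alone, a difference of at least 0.6 without overlap between the groups, was met by 160 transcripts, or 1.03% of the table, while 2.31% had all 4 Elav-ATMi arrays above all 4 controls by any amount. The other 111 of these lay outside the bounds with Repo, in ATM8 homozygotes or in both. At the edge of the rule, the member with the smallest Elav difference was FBtr0074185 at 0.61, and the nearest transcript outside was FBtr0070805 at 0.60. FBtr0088691 lay closest inside the other bounds, with a Repo difference of 0.47, and FBtr0087629 closest outside, with an ATM8 difference of -0.51. The standard errors of the members' Repo differences ran from 0.13 to 1.30. Their median was 0.30, which is wide beside the bound of 0.5. They use 1 spread per transcript from all 20 arrays, so they do not measure scatter between Repo arrays alone. The 1.30 belonged to FBtr0077040, with SDs of 0.09 in Repo-GAL4 and 0.10 in Repo-ATMi heads but 2.97 in Elav-ATMi heads.

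In limma across all transcripts, 28 of the 49 members passed an adjusted p of 0.05 in the Elav comparison, where 1.01% of all transcripts were called higher. The rule used this contrast, so nothing is read from the count, and Elav differences are given with their standard errors (median 0.21, range 0.09 to 0.92) as descriptions. The spread between the Elav-ATMi arrays of a member was often large, with a median SD of 0.37 and a highest of 2.97, against 0.21 and 0.92 between its Elav-GAL4 arrays.

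One array carried much of that spread. For 11 of the 49 members, replicate 1 of Elav-ATMi lay more than 1 log2 unit above each of the other 7 Elav arrays. Over the whole table this held for 244 transcripts (1.58%) on that array, for 70 (0.452%) on Elav-ATMi replicate 3, and for at most 11 on any of the 6 other Elav arrays. A single high array raises the group mean, so the rule favours such transcripts. Without Elav-ATMi replicate 1 the rule would choose 48 transcripts, of which 38 are among the 49, and the 11 members lost were all dim. These are not the same 11 as those above. FBtr0088539, FBtr0079765 and FBtr0073977 stood apart on replicate 1 but were kept. FBtr0081201, FBtr0076316 and FBtr0088921 did not stand apart but were lost.

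FBtr0077040 shows this most clearly. Its Elav-GAL4 levels were 4.45, 4.76, 4.68 and 4.64, and its Elav-ATMi levels were 10.82, 4.78, 5.01 and 4.84. The groups do not overlap, yet replicates 2 to 4 lay just above the controls, and the difference of 1.73 ± 0.92 (SE) became 0.24 without replicate 1. With the ElavC155 driver it was at 5.36 and 4.93 in controls and 5.02 and 5.08 in ElavC155-ATMi heads. FBtr0087754 had Elav-ATMi levels of 11.59, 6.78, 6.55 and 6.95 against controls between 6.10 and 6.32, and its difference of 1.77 ± 0.76 became 0.56. Another member of this kind, FBtr0079765, was high on a pair of arrays, with Elav-ATMi levels of 9.82, 6.19, 8.45 and 6.17 against controls between 5.59 and 6.05. It kept a difference of 1.09 without replicate 1, and its ElavC155 levels were 6.48 and 6.40 in controls and 6.25 and 6.18 in ElavC155-ATMi heads.

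**Figure D1:**
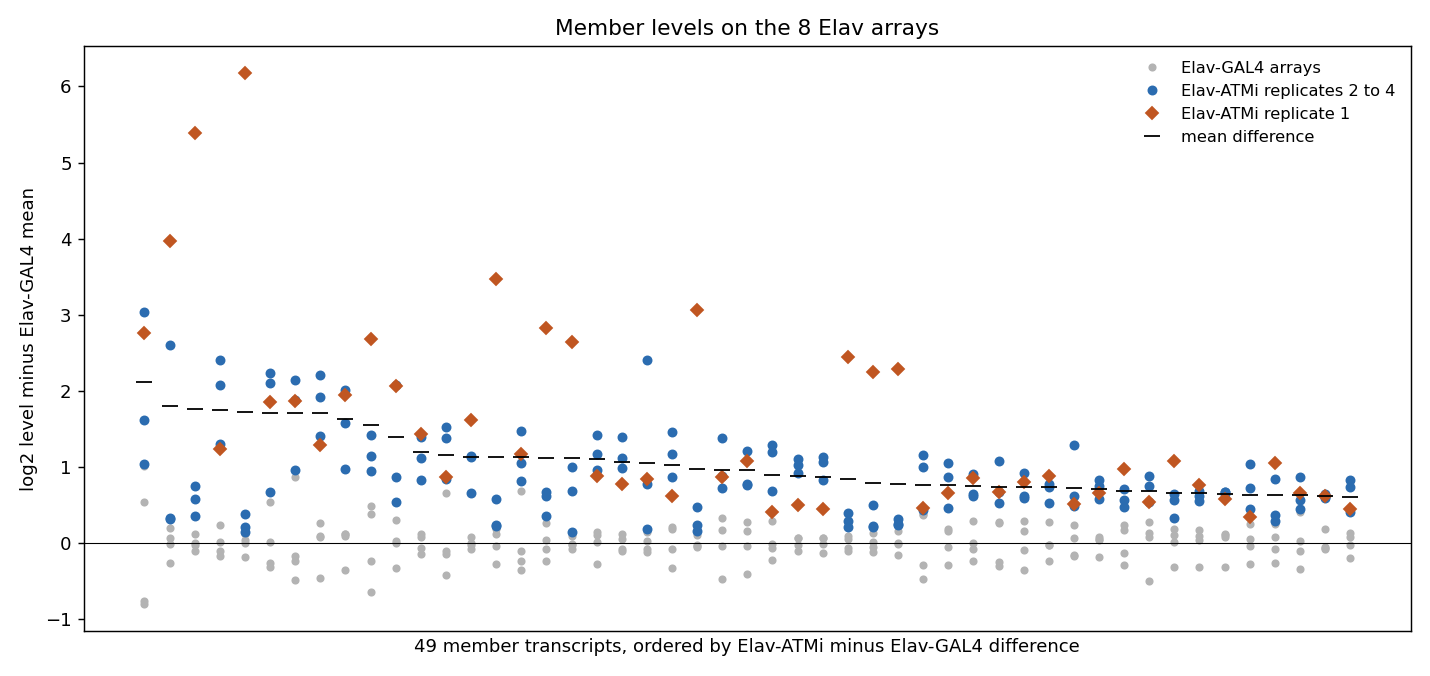
Log2 level on each of the 8 Elav arrays minus the Elav-GAL4 mean, for the 49 members ordered from left to right by their Elav-ATMi minus Elav-GAL4 difference (2.11 to 0.61); grey points are Elav-GAL4 arrays, blue points Elav-ATMi replicates 2 to 4, orange diamonds Elav-ATMi replicate 1 and black bars the mean difference. For 11 members the diamond stands more than 1 unit above every other Elav array, highest for FBtr0077040.

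Other members with large differences were high on all 4 Elav-ATMi arrays. FBtr0075870 had the largest difference, 2.11 ± 0.43, with levels of 9.54, 9.82, 7.82 and 8.39 in Elav-ATMi heads and 7.80, 7.31, 5.97 and 6.02 in controls. Replicates 1 and 2 were higher than replicates 3 and 4 in both genotypes. The lowest Elav-ATMi array lay just above the highest control. FBtr0087641 stood at 8.31, 8.36, 9.47 and 9.14 in Elav-ATMi heads against 6.97, 7.30, 7.08 and 6.90 in controls, a difference of 1.76 ± 0.25. FBtr0073806 stood at 7.73, 6.55, 7.98 and 8.12 against 5.90, 5.62, 6.42 and 5.57, a difference of 1.72 ± 0.31. Its replicate 2 of Elav-ATMi lay only slightly above the highest control.

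The ElavC155 driver gave the check with a second neuronal driver. In limma, 4 of the 49 members rose in ElavC155-ATMi heads at an adjusted p under 0.05 over all transcripts (8.16%), where 0.33% of all transcripts were called higher and 0.504% were called in either direction. Members called lower numbered 0 (0.174% of all transcripts were). At an unadjusted p under 0.05, limma gave 16 members higher and 0 lower, against 3.52% and 2.8% of all transcripts. The ElavC155 difference was above 0 for 41 of the 49 members (51.3% of all transcripts), and both ElavC155-ATMi arrays lay above both controls for 27 (19.3% of all transcripts) and below both for 3 (20.7%). The median member difference was 0.34, against 0.01 over all transcripts. The count of 4 members was 2 when either ElavC155-GAL4 replicate 2 or ElavC155-ATMi replicate 2 was left out. Fitted by limma on the ElavC155 pair only, 0 passed, with 14 higher and 0 lower at an unadjusted p under 0.05, where the same fit gave 4.55% and 4.21% of all transcripts. The background also rests on single arrays: without ElavC155-ATMi replicate 2 the 51 higher and 27 lower calls over all transcripts became 11 and 21.

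The interval of the ElavC155 difference was wide for most members. The width uses 1 spread per transcript from all 20 arrays, so scatter between Elav arrays widens the interval too. Its 95% limits from limma contained 0 for 33 of the 49 and lay above 0 for 16, and 24.5% of the members had a difference of at least 0.6 (2.39% of all transcripts did). The 6 members with the largest Elav differences had ElavC155 differences of -0.22 to 0.28, each with an adjusted p of 1. For FBtr0087641 the ElavC155 levels were 6.83 and 7.17 in controls and 7.01 and 7.09 in ElavC155-ATMi heads, a difference of 0.05 with limits of -0.70 and 0.80. For FBtr0073806 they were 4.76 and 4.95 against 4.81 and 5.28, a difference of 0.19 with limits of -0.75 and 1.13. FBtr0075870, at 7.40 and 7.49 against 7.63 and 7.83, had a difference of 0.28 with limits of -1.01 and 1.58. The limits of the last reach well into the range of its Elav difference. For FBtr0087754 and FBtr0077040 the upper limits, 2.22 and 2.67, lie above the Elav differences of 1.77 and 1.73. Their Elav-ATMi SDs, which enter these limits, were 2.42 and 2.97. In ElavC155-GAL4 and ElavC155-ATMi heads the SDs were 0.06 and 0.23 for FBtr0087754, and 0.30 and 0.05 for FBtr0077040. The limits therefore do not show how closely the ElavC155 arrays agreed. A smaller response with the ElavC155 driver is not shown for FBtr0075870, FBtr0087754 or FBtr0077040 by limits that also hold the Elav scatter. Nor can it be read for the rest of the 6, which were picked for large Elav differences. Whether the responses to both drivers differ was not tested for any member, because one of them chose the members.

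**Figure D2:**
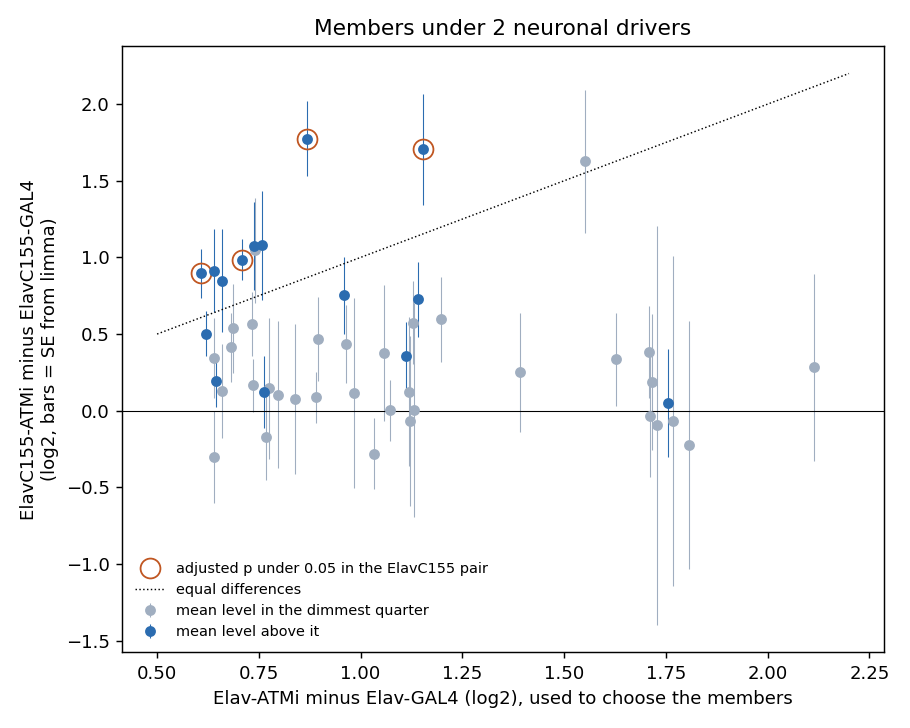
Elav-ATMi minus Elav-GAL4 difference (log2, horizontal, used to choose the members) against ElavC155-ATMi minus ElavC155-GAL4 difference (log2, vertical, bars are limma standard errors) for the 49 members; grey points are the dim members (34) and blue points the brighter ones (15), orange rings mark the 4 members at an adjusted p under 0.05 and the dotted line marks equal differences. The ringed points lie above the dotted line at Elav differences of 0.61 to 1.15, and most grey points lie near or just above 0 on the vertical axis.

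The 4 members called with the second driver were FBtr0083170, FBtr0085101, FBtr0074185 and FBtr0073334. FBtr0083170 stood at 7.20 and 8.06 in ElavC155-GAL4 heads and at 9.39 and 9.43 in ElavC155-ATMi heads. Both ATMi arrays were well above both controls, and the rise was 1.78 ± 0.24 (SE, limma adjusted p = 0.00233). In Elav heads it was at 7.61, 7.73, 7.81 and 7.81 in controls and at 8.19, 8.57, 8.88 and 8.80 with the knockdown, a difference of 0.87 ± 0.17. The ElavC155 call held in 10 of 11 other settings, and its adjusted p was 0.227 when only the ElavC155 pair was fitted.

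FBtr0085101, one of the brightest members, had the smallest limma standard errors of the 49. Its ElavC155 levels were 12.37 and 12.35 in controls and 13.28 and 13.40 in ElavC155-ATMi heads, a rise of 0.99 ± 0.13 (adjusted p = 0.00197). In Elav heads the controls were at 12.14, 11.93, 12.19 and 12.17 and the knockdown heads at 12.77, 12.87, 12.94 and 12.69, a difference of 0.71 ± 0.09. Arrays of 1 genotype lay close together, and the knockdown and control groups were far apart by comparison. The ElavC155 call again held in 10 of 11 other settings, with an adjusted p of 0.138 when only that pair was fitted.

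The other calls were less stable. FBtr0074185 stood at 12.39 and 12.16 in ElavC155-GAL4 heads and at 13.18 and 13.17 in ElavC155-ATMi heads, a rise of 0.90 ± 0.16 (adjusted p = 0.0137). Leaving out ElavC155-GAL4 replicate 2 gave an adjusted p of 0.195, and leaving out either ElavC155-ATMi array gave 0.12 or 0.118. FBtr0073334 stood at 9.13 and 9.54 in controls and at 10.41 and 11.67 in ElavC155-ATMi heads, a rise of 1.71 ± 0.36 (adjusted p = 0.0496). It passed in 5 of 11 other settings, and its adjusted p became 0.275 or 0.149 when either control array was left out and 0.628 when the higher ElavC155-ATMi array was. In Elav heads FBtr0073334 ran from 8.88 to 9.97 in controls and from 10.15 to 10.82 with the knockdown, while FBtr0074185 ran from 11.89 to 12.21 and from 12.48 to 12.91.

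These 4 members also lay above their controls with the glial driver, within the bound of the rule. Both Repo-ATMi arrays were above both Repo-GAL4 arrays for each of the 4, with Repo differences of 0.27 to 0.44. For FBtr0083170 the groups all but touched, at 8.73 and 8.87 in controls and 9.26 and 8.87 in Repo-ATMi heads. FBtr0085101 stood at 12.05 and 12.05 in Repo-GAL4 heads and at 12.33 and 12.54 in Repo-ATMi heads, a difference of 0.38 ± 0.13. FBtr0074185 stood at 12.42 and 12.36 against 12.98 and 12.68, a difference of 0.44 ± 0.16. The groups of the last pair of transcripts were clearly separate, although their differences were under 0.5. In ATM8 homozygotes all 4 were instead below the heterozygotes on both arrays, by -0.38 to -0.09. Over all 49 members, Repo-ATMi arrays lay wholly above the controls for 16 and wholly below for 6 (24.9% and 25.8% of all transcripts), and ATM8 homozygotes wholly above for 9 and wholly below for 7 (22.9% and 20.5%). With Repo and ATM8 differences held between -0.3 and 0.3, 30 members would remain and 1 of them, FBtr0083170, would be among the 4.

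**Figure D3:**
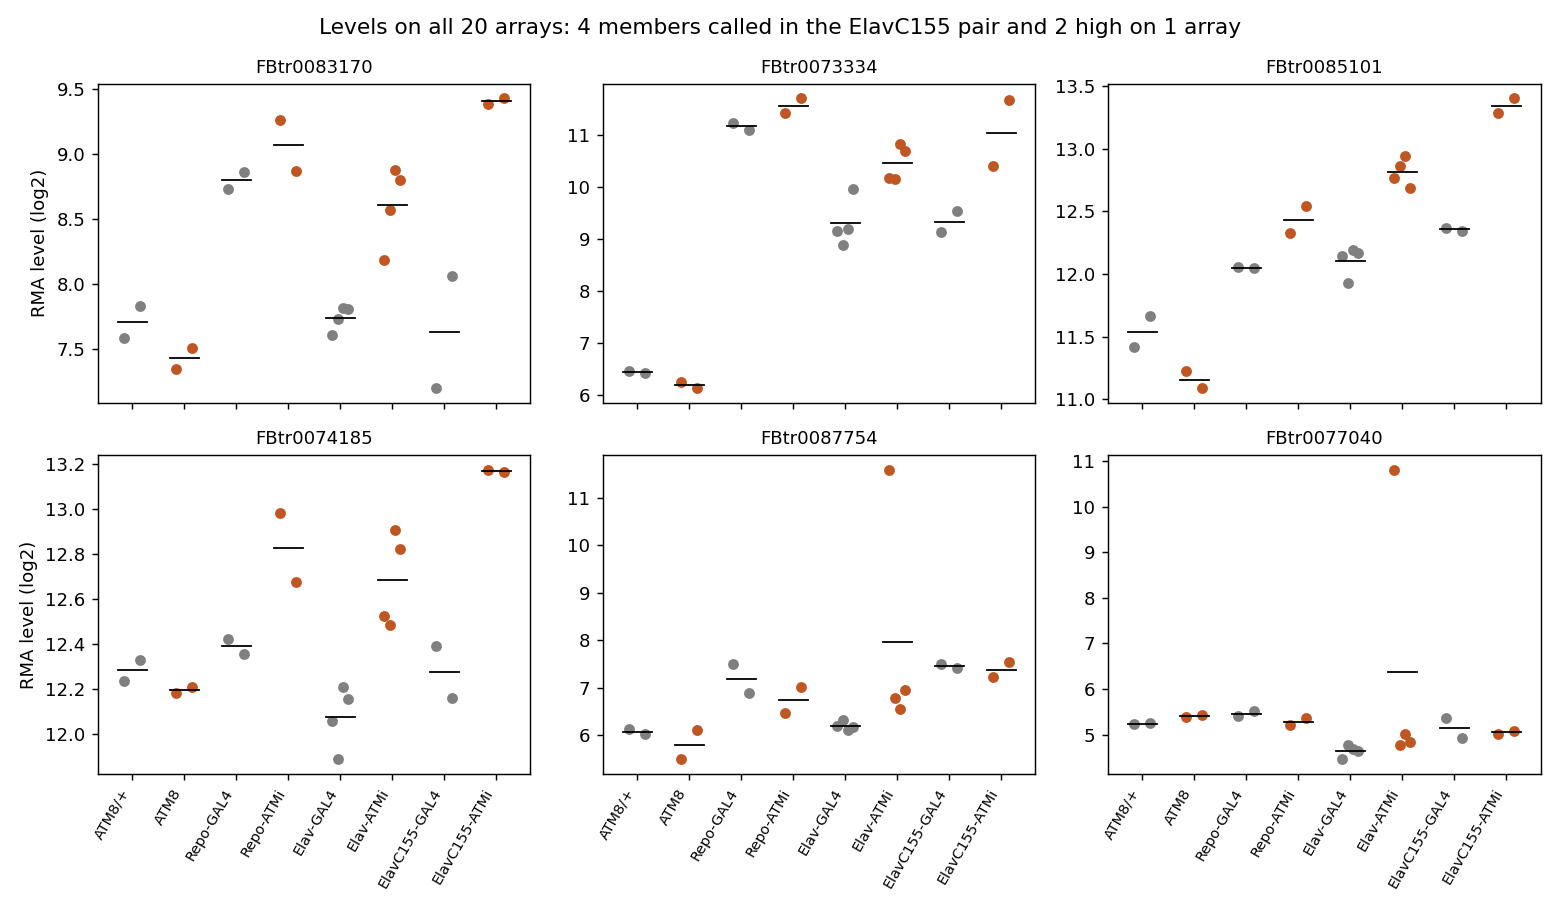
RMA level (log2) on each of the 20 arrays for 6 members, 1 panel per transcript with its own vertical scale; grey points are control genotypes, orange points the matched experimental genotypes and black bars group means. In the first 4 panels the Elav-ATMi and ElavC155-ATMi arrays all lie above their own controls, as do the Repo-ATMi arrays by a smaller step (barely so for FBtr0083170), whereas FBtr0087754 and FBtr0077040 are high on Elav-ATMi replicate 1 alone.

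Brighter members showed the difference with the second driver more often than dim ones. Of the 15 brighter members, 15 had an ElavC155 difference above 0, 12 had both ElavC155-ATMi arrays above both controls (20.6% of all transcripts at such levels) and 4 were called higher (0.362%), with a median difference of 0.85. Of the 34 dim members, 26 had a difference above 0, 15 had both arrays above both controls (15.6% of all transcripts there) and 0 were called higher (0.233%), with a median of 0.16. The median standard error was 0.25 in the brighter and 0.33 in the dim group. These errors use the spread of all 20 arrays and are not the precision of the ElavC155 arrays alone. The 11 members lost without Elav-ATMi replicate 1 were all dim. The Elav differences ran the other way, with a median of 0.76 in the brighter and 1.05 in the dim members. The contrast between bright and dim members was noticed in the data and was not tested.

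**Figure D4:**
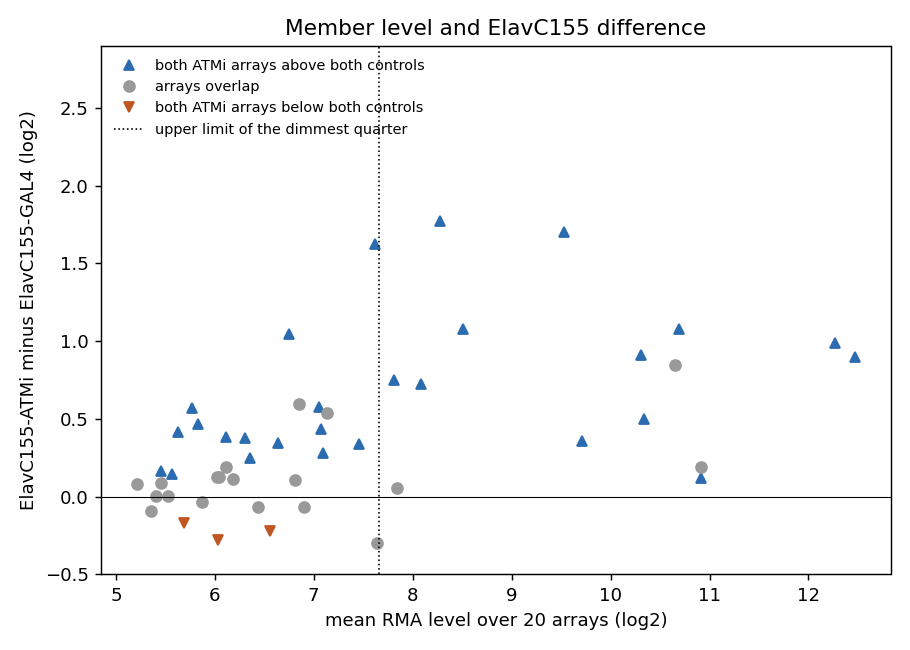
Mean RMA level over all 20 arrays (log2, horizontal) against the ElavC155-ATMi minus ElavC155-GAL4 difference (log2, vertical) for the 49 members; blue triangles have both ElavC155-ATMi arrays above both controls (27 members), orange triangles both below (3 members), grey points overlap, and the dotted line at 7.66 marks the upper limit of the dimmest 25% of the table. All 15 members to the right of the dotted line lie above 0.

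Further members differed with both drivers without passing the ElavC155 test. FBtr0073977 stood at 6.75 and 6.63 in ElavC155-GAL4 heads and at 8.16 and 8.46 in ElavC155-ATMi heads, a difference of 1.63 ± 0.47 (adjusted p = 0.222, from 0.0598 to 0.928 over the other settings). In Elav heads it was at 7.93, 7.20, 6.79 and 7.82 in controls and at 10.12, 8.85, 8.58 and 8.39 with the knockdown, a difference of 1.55 ± 0.33 that became 1.18 without Elav-ATMi replicate 1. FBtr0077215 stood at 10.70 and 9.19 in ElavC155 controls and at 11.25 and 10.80 in knockdown heads, a difference of 1.08 ± 0.36 (adjusted p = 0.364). Its control arrays were far apart, and the difference was 1.84 (adjusted p = 0.0142) without ElavC155-GAL4 replicate 1 and 0.32 (adjusted p = 1) without replicate 2. FBtr0088691 stood at 7.93 and 8.26 against 8.77 and 8.93, a difference of 0.75 ± 0.25 (adjusted p = 0.382).

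For 3 members the ElavC155 arrays lay the other way, both below both controls, by small amounts. FBtr0086859 stood at 6.27 and 6.23 in ElavC155-GAL4 heads and at 6.09 and 5.85 in ElavC155-ATMi heads, a difference of -0.28 ± 0.23. FBtr0079765 differed by -0.22 ± 0.81 and FBtr0083618 by -0.17 ± 0.28, and the adjusted p of all 3 was 1. All 3 were dim. The standard error of FBtr0079765 takes in its Elav-ATMi arrays, with an SD of 1.80. Its SD was 0.05 in ElavC155-GAL4 and 0.05 in ElavC155-ATMi heads.

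The Elav-GAL4 controls were low for many members when set beside the other neuronal genotypes. The mean of Elav-GAL4 was the lowest of the 4 neuronal genotypes for 30 of the 49 (24.2% of all transcripts), and that of Elav-ATMi the highest for 33 (22.3%), which the choice of members favours. ElavC155-GAL4 controls stood above Elav-GAL4 controls for 61.2% of the members, against 49.3% of all transcripts. They stood above Elav-ATMi heads for 6 members (12.2%, against 49.3% of all transcripts). The choice of members, which used the Elav values, favours both of these shifts too, so nothing is read from them. FBtr0080606, singled out here after its values were seen, was at 8.73 and 7.98 in ElavC155-GAL4 heads and at 8.26 and 8.31 in ElavC155-ATMi heads, against 8.13, 5.99, 5.94 and 5.66 in Elav-ATMi heads and 5.07 to 5.57 in Elav-GAL4 heads. For this transcript the driver lines differed by more than the knockdown did in either. Differences between strains and between drivers cannot be told apart here.

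The 111 other transcripts that met the Elav criterion give values to set beside these. Of those, 21 (18.9%) rose with ElavC155 against 4 (8.16%) of the members, 74 (66.7%) against 27 (55.1%) had both arrays above both controls, and 92 (82.9%) against 41 (83.7%) had a difference above 0. Their median ElavC155 difference was 0.57, against 0.34. The difference between these groups of transcripts was not tested.

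Some members may not be independent of each other. In 4 pairs the identifiers are at most 3 numbers apart, and the table does not say whether such transcripts share a gene or probes. FBtr0077214 and FBtr0077215 moved alike, with Elav differences of 0.66 and 0.76 and ElavC155 differences of 0.85 and 1.08, and both were lowest on ElavC155-GAL4 replicate 2, at 9.16 and 9.19. FBtr0074796 and FBtr0074797 had Elav differences of 0.89 and 1.07 and ElavC155 differences of 0.09 and 0.00. FBtr0070946 and FBtr0070949 differed more from each other, at 1.63 and 0.64 with Elav and 0.34 and 0.91 with ElavC155. The values of FBtr0075870 and FBtr0075872 were 2.11 and 0.68 with Elav and 0.28 and 0.41 with ElavC155.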

How the data were processed

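RNA from fly heads was hybridised to 20 arrays, 1 per sample, with 2 or 4 samples in each of 8 genotypes. The authors deposited log2 levels per transcript, made with RMA per the submitters' processing notes, which give no version. The log2 scale was read from the values, and no source used here states the background step, the probe filter or the annotation release. Array medians were 10.45 to 10.63 for the 8 ATM8 and Repo samples and 10.84 to 10.93 for the 12 neuronal samples; each comparison lies within 1 of these sets. Replicates correlated at 0.976 or above and 0 pairs of arrays were identical. The labels do not say whether replicates came from separate crosses, so a p-value reflects only how these samples scatter, which may be technical. Precision is limited by how few arrays there are.

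The tests used limma 3.58.1 under R 4.3.3: two-sided eBayes tests on 1 lmFit model with a mean per genotype over all 20 arrays, 12 residual and 3.79 prior degrees of freedom. Benjamini-Hochberg adjustment ran over all 15473 transcripts. The code was tested on simulated data. An exact permutation test of 2 arrays against 2 cannot go below p = 0.333 and was not used. The 49 members and the gene lists were chosen with earlier results of these data known. Named are the 6 members with the largest Elav difference, every member called with ElavC155, the 4 highest and 4 lowest ElavC155 differences without overlap (3 lay below), the transcripts at the edges of the rule and any member with a gene name (0). FBtr0080606 and the members of 4 pairs with close identifiers were added after their values were seen. The 8 gene lists had 0 matches and were not tested. Alternatives covered the samples in the fit, the normalization, the prior, array weights, a filter on dim transcripts, the replicate number as a block, the rule for members and leaving out each array. Across transcripts, same-numbered Elav samples deviated together, with correlations of 0.12, 0.17, 0.24 and 0.17. Elav-ATMi replicates 2 and 4 correlated better with another control (0.24 and 0.39). Elav-ATMi replicates 1 and 2 correlated positively with controls 1 and 2 and negatively with controls 3 and 4. For Elav-ATMi replicates 3 and 4 the signs were the reverse, so the Elav samples fell into 2 sets more than into pairs. The numbers were taken to pair the Elav samples for the block, and the main model has no term for these sets. The ElavC155 pairs gave 0.51 each, too few pairs to decide.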

Additional observations from a re-analysis of the deposited data

Results flagged for a closer look

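On Elav-ATMi replicate 1, FBtr0087754 stood at 11.59, far from the other Elav-ATMi arrays at 6.55 to 6.95, and FBtr0077040 at 10.82, far from the others at 4.78 to 5.01. On Elav-GAL4 replicate 2, FBtr0085101 stood at 11.93, below the other controls at 12.14 to 12.19. In groups of 4, chance alone sets about 1 in 20 such groups apart by this measure. The measure set an array apart for 9 of the 49 members in Elav-ATMi and 4 in Elav-GAL4, and for 6.08% and 6.05% of all transcripts. The rule used these arrays and favours a single high Elav-ATMi array, so nothing is read from the member counts.

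FBtr0079765 (-0.22), FBtr0086859 (-0.28) and FBtr0083618 (-0.17) had both ElavC155-ATMi arrays below both controls, while their Elav-ATMi arrays all lay above the Elav-GAL4 arrays. The difference between the drivers was not tested.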

How the results depend on the processing

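The ElavC155 pair gave 78 changed transcripts over the whole table, 6 in a fit of its 4 arrays alone, 47 in a fit of the 12 neuronal arrays, 194 with array weights, and 32 to 56 with 1 ElavC155 array left out. The lowest, without ElavC155-ATMi replicate 2, had 11 higher and 21 lower, against 51 and 27. The 4 members called higher were 0 and 2 in these fits of 4 and 12 arrays, 1 when members needed an Elav difference of at least 1, 1 with bounds of -0.3 and 0.3, and 2 to 5 with 1 array left out. Members called lower numbered 0 in limma under every setting run, and 0 were lower at an unadjusted p under 0.05. The median ElavC155 difference of 0.34 was 0.85 for the members left without the dimmest 25%, 0.22 and 0.27 under the stricter member rules, and 0.22 to 0.31 with 1 array left out. The 27 members with separate ElavC155 groups became 12 of 15 without the dimmest 25%. The 49 members were 22 and 30 under the stricter rules and 42 to 74 with 1 array left out, the most without Elav-ATMi replicate 2. The 28 members past the test with Elav were 15 in the 8 Elav arrays alone.

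Blocking on the replicate number gave 103 changed transcripts, 4 members higher and 0 lower with ElavC155, and 31 members past the test with Elav; the ElavC155 call changed for 0 of the 49 members. Choosing members without Elav-ATMi replicate 1, an alternative added after seeing the data, left 4 called and a median of 0.35, while members below both ElavC155 controls went from 3 to 6 and members above 0 from 41 to 38. Uncalled ElavC155 differences near 0 changed sign with 1 array left out: FBtr0087754 ran from -0.23 to 0.10, FBtr0087641 from -0.12 to 0.22, FBtr0077040 from -0.31 to 0.12 and FBtr0073806 from -0.048 to 0.43. The causes of these shifts were not tested, and some settings also used fewer arrays or transcripts. With 1 array left in a group, limma takes it to vary like the other groups. Other settings moved counts by less than 1.5 times.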
